A study of Mus musculus with 2 samples.

Results

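Schwann cell and nerve genes were followed in the skin of newborn mice without keratin 5. The set was a list of 6 genes: Pmp22, Mbp, Sox10, S100b, Ngfr and Gap43. Its members on the array were the probe sets that the platform annotation assigns to 1 gene symbol from that list. They came to 8 probe sets of 5 genes, out of 12488 probe sets in the table. Those with 1 gene symbol numbered 10833, controls left out, and covered 8251 genes. Ngfr, the p75 neurotrophin receptor gene, had no probe set under this rule and was not analysed here.

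Skin of keratin 5 knockout (K5-/-) mice, a model of the blistering disease epidermolysis bullosa simplex, was set against skin of wildtype mice. The sources used here do not state strain or sex. Both groups were taken right after birth. Total RNA from 6 animals made up the pool of each group. The 2 pools gave 2 arrays, and there are no replicates. The labels call the source epidermis but describe removal of skin, with no step that separates its layers. Every difference below compares 2 pools and no test was possible, because the spread between animals and between hybridisations is unknown.

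Nerves reach the skin through the dermis as bundles of axons wrapped by Schwann cells, which derive from the neural crest. Sox10 is the transcription factor that specifies and maintains this lineage, together with the melanocyte lineage. Pmp22 and Mbp encode proteins of compact myelin, Pmp22 in the membrane and Mbp on its cytoplasmic face. S100b encodes a calcium-binding protein long used as a Schwann cell marker, also made by adipocytes and melanocytes. Gap43 encodes a growth cone protein of extending axons, and non-myelinating Schwann cells make it too. Pmp22 is transcribed well outside nerve as well, among other places in fibroblasts, where it was found as a growth arrest gene.

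Values are MAS5 signals, the Affymetrix summary of the probes in a probe set, on a linear scale. The floor, below which a signal was treated as not measured, was 246.7 signal units, the 40th percentile of all values. Differences are log2 ratios of knockout over wild type. The targeted gene Krt5 gave 81.2 in knockout skin and 46.6 in wild type skin, under the floor on both arrays, so it does not check the labels.

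None of the measured members differed 2-fold between the pools at the floor used here. Of the 8 probe sets, 5 exceeded the floor in both pools and 3 lay below it in both. The 5 measured probe sets belong to Pmp22, Mbp, Sox10 and Gap43, and 0 of them differed at least 2-fold, where 2.25% of the 7067 measured probe sets did. The number at least 1.5-fold different was 1, an Mbp probe set, against 13.2% of all measured probe sets. By direction, 1 was higher in knockout skin and 4 were lower, while 45.3% of all measured probe sets were lower. Their median log2 ratio was -0.17, beside 0.04 over all measured probe sets, whose lower and upper quartiles were -0.21 and 0.29. No test of this median was possible with 2 arrays.

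**Figure D1:**
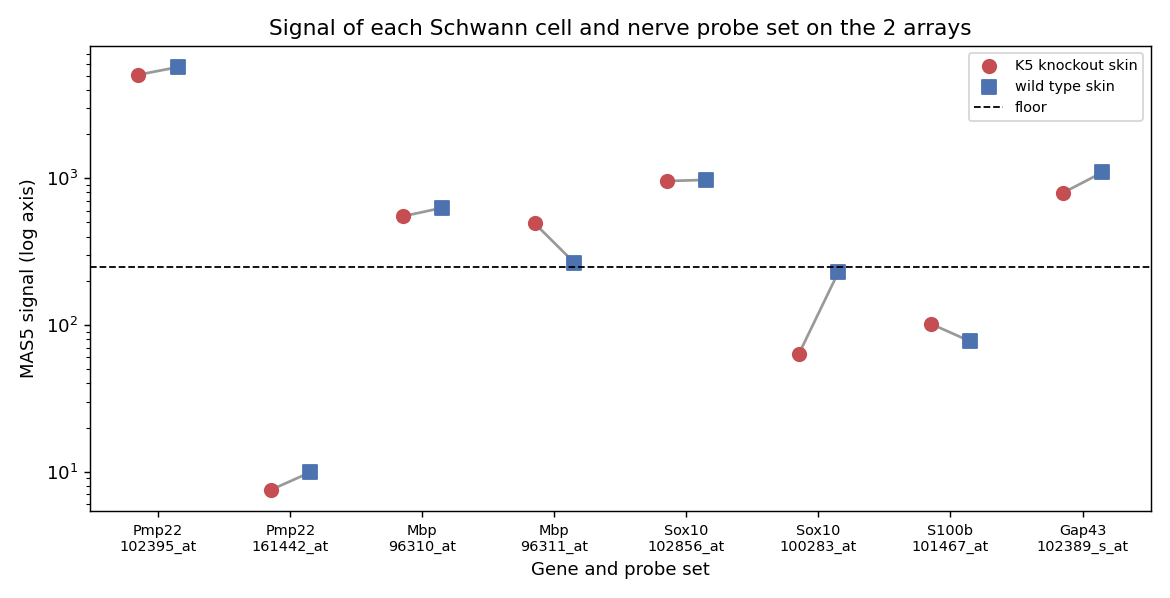
MAS5 signal on a log axis for each of the 8 member probe sets, 1 pool of 6 animals per point, with knockout skin as circles and wild type skin as squares, and the floor of 246.7 as a dashed line. The brighter probe sets of Pmp22, Mbp and Sox10 and the Gap43 probe set differ by less than 1.5-fold between the arrays, while the second Mbp probe set is 1.85-fold higher in knockout skin and 3 probe sets lie below the floor.

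Among the genes of myelin, Pmp22 was close to equal on the 2 arrays. Its probe set 102395_at read 5068 in knockout skin and 5714 in wild type skin, a log2 ratio of -0.17, or 1.13-fold lower. The standard deviation of log2 ratios among probe sets that share a gene was 0.30 over 838 genes, which shows how far probe sets disagree and holds no variation between animals or arrays. The other Pmp22 probe set, 161442_at, read 7.50 in knockout skin and 9.90 in wild type skin, both far under the floor. Pmp22 mRNA cannot be assigned to Schwann cells here, since dermal cells express it.

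The Mbp probe sets disagreed. Probe set 96310_at read 549 in knockout skin and 628 in wild type skin, a log2 ratio of -0.19. Probe set 96311_at read 493 in knockout skin and 266 in wild type skin, a log2 ratio of 0.89, or 1.85-fold higher. The wild type value of the second probe set lies just over the floor of 246.7. Of all measured probe sets, 2.26% had a ratio as high as that one or higher. The Mbp locus also gives rise to the longer golli transcripts, which are made outside myelinating cells, and the annotation used here does not say which transcripts each probe set reports.

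The gap between the 2 Mbp log2 ratios was 1.08. Of 741 genes with exactly 2 probe sets that both exceeded the floor on each array, 21 had a gap of that size or more, or 2.83%, and the median gap was 0.24. Among the 200 of these genes whose brighter probe set averaged under 1000 signal units, as Mbp's does, 9 had such a gap, or 4.50%. No direction is given for Mbp as a gene.

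**Figure D2:**
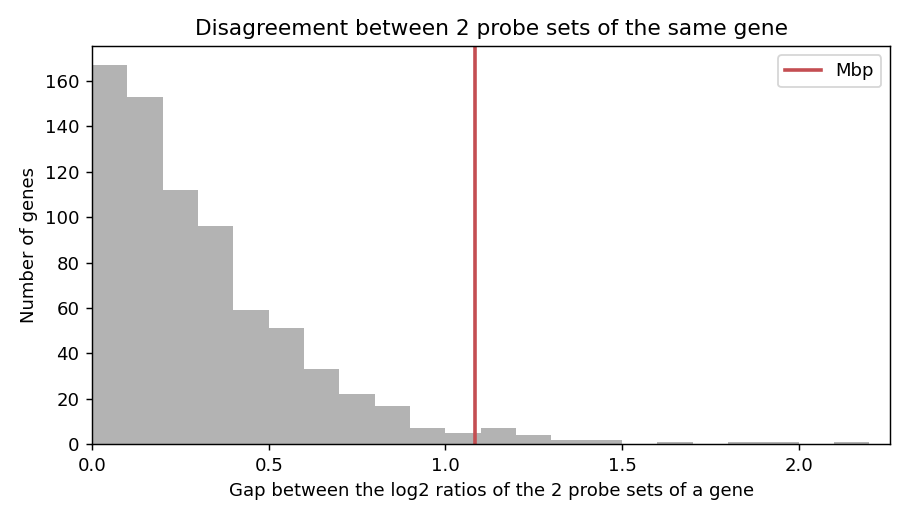
Histogram of the gap between the log2 ratios of the 2 probe sets of a gene, over 741 genes with exactly 2 such measured probe sets, in number of genes per bin. The Mbp gap of 1.08, drawn as a vertical line, lies in the upper tail, where 21 genes have a gap as large or larger.

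Sox10, the lineage factor, was nearly the same in both pools by its brighter probe set. Probe set 102856_at read 956 in knockout skin and 973 in wild type skin, a log2 ratio of -0.03. The dimmer probe set 100283_at read 63.0 in knockout skin and 228 in wild type skin. Both of these values are under the floor, so no ratio is given for it. With the floor lowered to the 25th percentile, 86.9 signal units, its log2 ratio was bounded at -1.39 or lower, and it was then the 1 member probe set past 2-fold. The share of all probe sets past 2-fold at that lower floor was not computed.

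S100b was not measured. Its 1 probe set, 101467_at, read 102 in knockout skin and 77.3 in wild type skin, under the floor on both arrays. A low MAS5 signal may come from a scarce transcript or from probes that report it poorly, and these files do not tell these apart.

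Gap43, the axonal growth cone gene, had the lowest ratio of the members measured at the 40th percentile floor. Probe set 102389_s_at read 793 in knockout skin and 1094 in wild type skin, a log2 ratio of -0.46, or 1.38-fold lower. Of all measured probe sets, 91.1% had a ratio as high as that or higher. The value rests on 1 probe set, whose s suffix marks probes that may also match other transcripts.

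**Figure D3:**
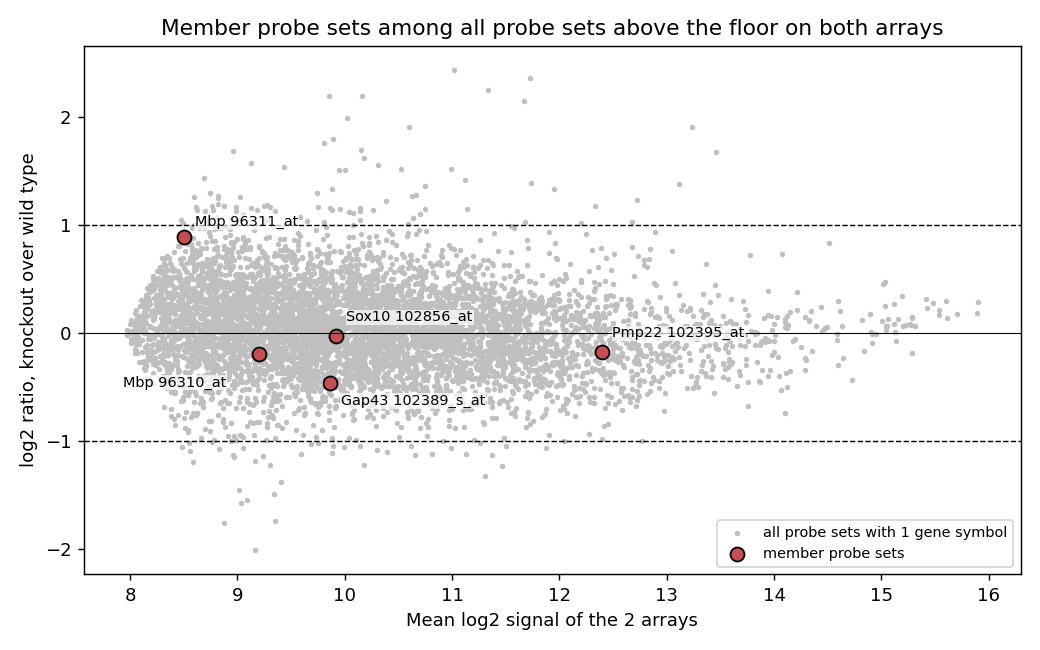
Log2 ratio of knockout over wild type against the mean log2 signal of the 2 arrays, 1 grey point per probe set with 1 gene symbol that exceeded the floor in each pool, and the 5 measured member probe sets in red. Dashed lines mark 2-fold; all 5 lie between them, from -0.46 for Gap43 to 0.89 for the second Mbp probe set.

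Other genes of myelin gave few measurements. Each gene in this and the following lists is represented by its probe set with the highest mean. Of 20 genes on a list of myelin structure, 10 had a probe set and 3 were measured, with 0 at least 2-fold different, against 2.24% of 5976 measured genes. Their median log2 ratio was -0.06, beside 0.04 over all measured genes. They were the proteolipid gene Mal (0.02) and the tetraspanin genes Cd9 (-0.06) and Cd82 (-0.27), all of which are expressed in epithelial cells too. The other 7, among them the myelin-associated glycoprotein gene Mag, the connexin gene Gjb1 and the phosphodiesterase gene Cnp, were under the floor on both arrays. Mag read 222 in knockout skin and 197 in wild type skin. Among the measured genes, Cd82 had a second probe set above the floor on both arrays, at -0.0024.

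The relatives of Pmp22 had ratios at or below 0 by their brightest probe sets, though Emp1 was above 0 with quantile normalization and with the lowess correction. All 4 of the Pmp22 family genes on the list were measured, with a median log2 ratio of -0.09 and 0 at least 2-fold different. Emp2 was at -0.45, Emp3 at -0.15, Emp1 at -0.04 and Perp, a desmosome-associated p53 target, at -0.0044. A second Emp3 probe set pointed the other way, at 0.32.

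Of 24 Schwann lineage genes listed, 19 had a probe set and 13 were measured; in knockout skin 7 were higher and 6 lower, their median was 0.03 and 0 were at least 2-fold different. The share higher is close to the 53.9% of all measured genes that were higher. The median turned to -0.06 with plain probe sets only and for a 60th percentile floor. It was 0.21 for a 25th percentile floor and 0.17 as the mean over probe sets. The highest were Nab2 (0.64), a cofactor that represses the Egr factors, Pou3f1 (0.61), the transcription factor of promyelinating Schwann cells that keratinocytes also express, the laminin gene Lama2 (0.57) and Sox2 (0.54). Sox2 rests on 1 probe set that read 381 in knockout skin and 261 in wild type skin, the latter close to the floor. The lowest were the integrin gene Itga6 (-0.38), which basal keratinocytes use in hemidesmosomes, the adhesion gene Ncam1 (-0.25), Egr2 (-0.24), the master factor of myelination, and the filament gene Nes (-0.16).

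Erbb3, the receptor through which axonal neuregulin keeps Schwann cells alive, read 4476 in knockout skin and 3985 in wild type skin, a log2 ratio of 0.17. It is expressed in keratinocytes as well. Probe sets did not always point the same way within this list either. A dimmer Ncam1 probe set was at 0.64, and the second probe set of Tfap2a, a neural crest and epidermal factor at -0.03, was at 0.90.

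As a check of the label, 11 Schwann markers were looked up. Of these, 6 had a probe set and 4 were measured: Pou3f1, Erbb3, Sox10 and Egr2. Mag and S100b were under the floor. The markers above the floor are all factors or receptors that other skin cells share. They show the lineage factor Sox10 in both pools by its brighter probe set only. They do not establish a Schwann cell signal apart from melanocytes and keratinocytes. Dhh, on the Schwann lineage list but not among these markers, was above the floor on both arrays by 2 probe sets that disagreed. The brighter read 689 in knockout skin and 581 in wild type skin, a log2 ratio of 0.25. Its f suffix marks probes that may also match other transcripts. The dimmer read 543 in knockout skin and 615 in wild type skin, a log2 ratio of -0.18. A further Dhh probe set read 17.8 in knockout skin and 9.70 in wild type skin, far under the floor. Which cells the Dhh signal comes from was not tested. In whole skin RNA, fewer cells of a type and less RNA per cell cannot be told apart.

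Axonal and neuronal genes had a median log2 ratio of 0.01, which lay between -0.08 and 0.08 across settings. Of 31 listed, 26 had a probe set, 12 were measured and 14 were under the floor on both arrays, as were all 3 neurofilament genes Nefl, Nefm and Nefh, the peripherin gene Prph and the sensory sodium channel genes Scn9a and Scn10a. Their transcripts lie largely in the cell bodies of the sensory ganglia, outside the skin. Whether this bears on the low signals was not tested. The neuropeptide gene Tac1, on the same list, read 1081 in knockout skin and 1021 in wild type skin. Of the 12 measured, 6 were higher and 6 lower, where 53.9% of all measured genes were higher, and 0 were at least 2-fold different.

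The lowest axonal ratio was that of Thy1 (-0.54), a surface glycoprotein gene of neurons, fibroblasts and lymphoid cells, which read 4007 in knockout skin and 5840 in wild type skin. It was followed by the neuronal tubulin gene Tubb3 (-0.26), Marcks (-0.11) and Uchl1 (-0.10). The Tubb3 value rests on a probe set with an f suffix, which also marks probes that may match other transcripts. That probe set read 5547 in knockout skin and 6649 in wild type skin. The other Tubb3 probe set read 191 in knockout skin and 193 in wild type skin, under the floor on both arrays. Which transcripts the brighter one reports was not tested. Basp1, which encodes a growth cone protein related in function to Gap43, was at -0.08, with a second probe set at 0.07. The highest were Chga (0.39), a granule protein gene of neuroendocrine cells, Gng3 (0.37), Dpysl2 (0.36), which acts in axon growth, and Stmn2 (0.23), a growth cone gene whose other measured probe set was at 0.25. Stmn2 and Gap43, both genes of growing axons, thus lay on opposite sides of 0.

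The measured genes of neurotrophic and guidance signals all had ratios above 0, except that Gfra3 was below 0 with quantile normalization and with the lowess correction. Of 26 listed, 15 had a probe set and 11 were measured; 11 were higher in knockout skin and 0 lower, where 53.9% of all measured genes were higher. Their median log2 ratio was 0.33 and 0 were at least 2-fold different. The highest was Plat (0.89), the tissue plasminogen activator gene, which read 1632 in knockout skin and 879 in wild type skin. It was followed by the guidance factor gene Ntn1 (0.49), the neurotrophic ligand gene Gdnf (0.44) and the guidance factor gene Sema3a (0.37). Traf6, an adaptor used by p75 and by IL-1 receptors, was at 0.36, with other probe sets at 0.32 and -0.18.

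Bdnf, a ligand of p75 and TrkB, read 318 in knockout skin and 252 in wild type skin, a ratio of 0.33 close to the floor. The lowest were Gfra3 (0.03), a receptor gene for artemin, Maged1 (0.06), which encodes a p75 partner, Gfra2 (0.19) and the ligand gene Nrtn (0.21). The neurotrophin receptor genes Ntrk2 and Ntrk3 were under the floor on both arrays. Most of the measured members act outside the neurotrophin pathway in a narrow sense, as fibrinolytic, guidance or GDNF family genes. The measured macrophage markers, below, were also higher in knockout skin, with a median of 0.58. Whether that bears on the neurotrophic list was not tested.

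Markers of other skin cells were read beside these lists. Melanocyte genes, whose cells share Sox10 and S100b with Schwann cells, had a median of -0.01, between -0.07 and 0.06 across settings. Of 15 listed, 9 had a probe set and 5 were measured, with 1 higher and 4 lower, where 53.9% of all measured genes were higher. Dct, an enzyme of melanin synthesis, was at -0.17 and Tyrp1, another, at 0.06. The others counted as lower lay close to 0: Kit (-0.0048), Mc1r (-0.0065) and Pmel (-0.05). The summed signal of the 9 melanocyte genes was 8271 in knockout skin and 8556 in wild type skin. None of the marker genes with a probe set was at 0 on either array. The lowest deposited value of any probe set was 0.1, so this holds for every gene and does not show that a cell type was present. The share of each cell type in the member ratios was not tested.

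Most macrophage, muscle and fibroblast markers were higher in knockout skin than in wild type skin. Over all measured genes, 53.9% were higher. Of 12 macrophage markers 9 were measured and 9 were higher, with a median of 0.58, from C1qc (0.24) to Adgre1 (0.97), and the summed signal of 11 was 15620 in knockout skin and 10887 in wild type skin. Adgre1 read 535 in knockout skin and 273 in wild type skin, the latter close to the floor. C1qb (0.96) had a second probe set at -1.004, and as the mean over probe sets it was below 0. All 14 skeletal muscle genes were higher, except Acta1 with quantile normalization, with a median of 0.24, from Des (0.03) to Myh8 (0.94), and a summed signal of 110093 in knockout skin and 94096 in wild type skin. Of 12 measured dermal fibroblast markers 9 were higher, with a median of 0.29, from Dpt (-0.30) to Pdgfra (1.02), and the summed signal of the 13 markers with a probe set was 229994 in knockout skin and 202210 in wild type skin. Pmp22, which fibroblasts express, was at -0.17 beside them.

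For the remaining cell types, 9 endothelial markers had a median of 0.17, from Tie1 (-0.22) to Vwf (1.05). That median turned to -0.10 for a 60th percentile floor, and a second Tie1 probe set was at 0.68. Vwf read 600 in knockout skin and 289 in wild type skin, the latter not far over the floor. The 6 measured adipocyte genes had a median of 0.10, from Retn (-0.33) to Lep (1.52). The hair follicle genes had a median of 0.25, from Krt17 (-0.999) to Krt71 (0.79), and the suprabasal keratinocyte genes one of 0.20, from Krt2 (-0.51) to Ivl (1.27). Of the Merkel cell markers, 2 of the 8 with a probe set were measured, Sox2 and Chga, which also stand in the nerve lists, while the defining markers Krt20, Krt8, Krt18 and Atoh1 were under the floor.

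**Figure D4:**
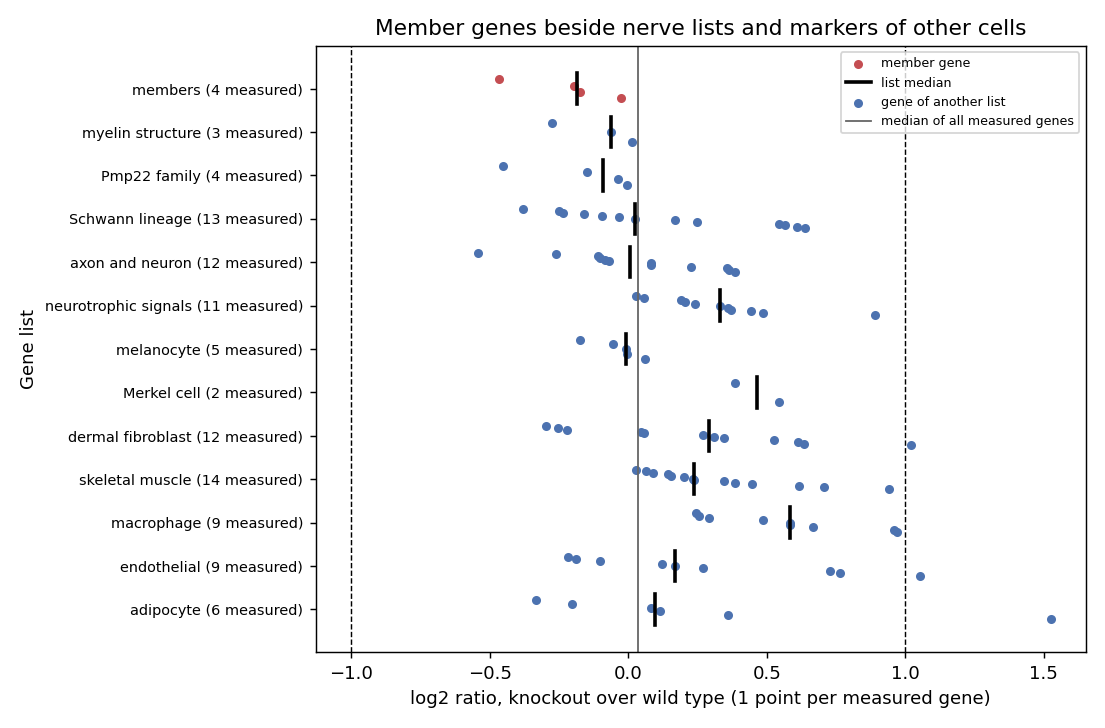
Log2 ratio of knockout over wild type for each measured gene, by its brightest probe set, in the member set (red) and in lists of nerve genes and of markers of other cells (blue), with each list's median as a black bar, the median of all measured genes as a grey line and 2-fold as dashed lines. The points of the 4 member genes lie between -0.46 and -0.03, with Mbp drawn at its brighter probe set only, while all measured macrophage, skeletal muscle and neurotrophic genes lie above 0 in the setting plotted; Gfra3, Acta1 and C1qb fall below 0 in others, and Mbp lies above 0 as the mean over its probe sets.

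The measured member probe sets kept their directions under each setting that gave them a ratio. Most of these settings could not have changed a direction. Another floor leaves a ratio above it unaltered, and a pseudocount keeps its sign. Unscaled values were nearly the same, with trimmed means of 993.9 and 994.2. Only quantile normalization and the lowess correction could have reversed one. Across the settings tried, Gap43 stayed between -0.52 and -0.42, Pmp22 between -0.17 and -0.08 and Sox10 (102856_at) between -0.06 and -0.02. The first Mbp probe set ran from -0.29 to -0.17 and the second from 0.70 to 0.89. Both Mbp probe sets were under the floor on both arrays, and had no ratio, when the floor was raised to the 60th percentile, 659.7 signal units.

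**Figure D5:**
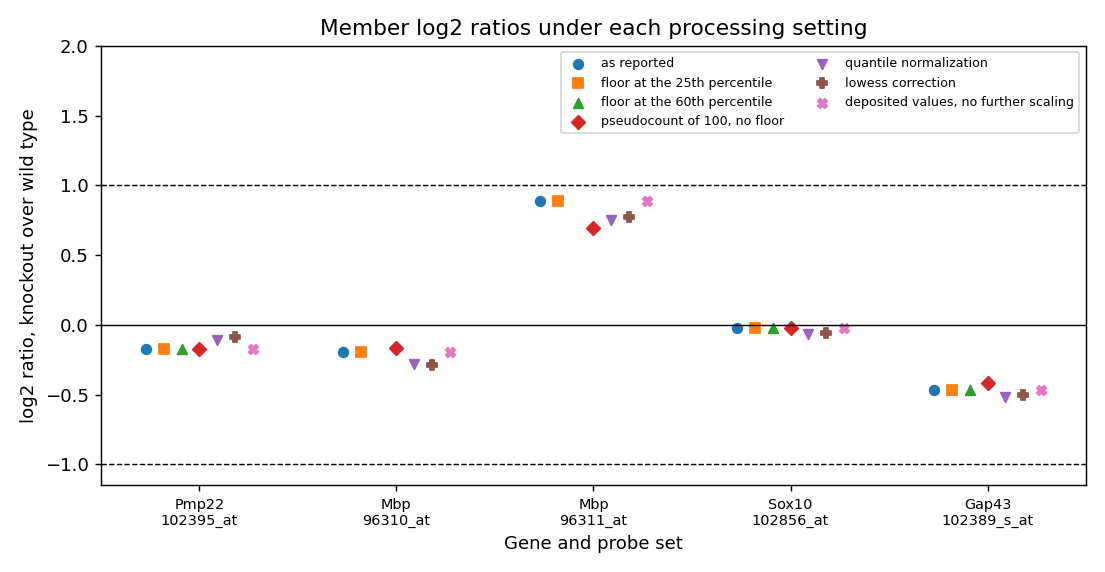
Log2 ratio of knockout over wild type for the 5 measured member probe sets under each of 7 settings, 1 symbol per setting, with 2-fold as dashed lines. Each probe set keeps its direction under the settings in which it has a ratio, and Mbp lacks symbols for the floor at the 60th percentile. Only quantile normalization and the lowess correction could have changed a direction.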

How the data were processed

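Skin RNA of 6 knockout and of 6 wild type animals was pooled by group, labelled with biotin and read on 1 array each, per the labels. The deposited values are intensities on a linear scale, 1 per probe set. MAS5 is named in the submitters' processing notes. The sources used here do not give its version, scaling target or detection calls. The 2% trimmed means of the deposited intensities were 993.9 (knockout) and 994.2 (wild type) over 12422 non-control probe sets, and the medians of all probe sets were 437 and 402.

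Each array was scaled to a common 2% trimmed mean, signals under the 40th percentile were raised to it, and log2 was taken (Python 3.11.15, numpy 2.4.6, pandas 2.3.3). A gene below the floor on 1 array gives a bound, and one below it on both gives no ratio. Symbols came from the platform annotation; 10817 of 10833 single-symbol probe sets matched a RefSeq gene table (GRCm38.p6) by gene identifier. With 1 array a group, no test was run. The calculation was tested on simulated data, in which changes of more than 2-fold were placed in bright probe sets only. Recovery at the signal levels of Mbp, Sox10 and Gap43 was not tested. The number of arrays limits the precision. Alternatives were floors at the 25th and 60th percentiles, a pseudocount of 100, quantile normalization, a lowess correction (statsmodels 0.14.6) and unscaled values, and for lists the mean over probe sets, plain probe sets only and genes above the floor on both arrays.

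The members and lists were chosen with earlier results of these data known. The text names all members; in each nerve list the genes at least 2-fold different and up to 4 with the highest and 4 with the lowest ratios; and in other lists the highest and lowest. The rule's brightest gene per marker list and genes nearest to each member in signal were left out, because signals of different probe sets are not comparable. For the same reason the summed signals of marker lists are weighted to their brightest probe sets, and they include any genes under the floor. Further genes, second probe sets and genes under the floor were named after their values were seen. RefSeq protein and array probe sequences were not used here.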

Additional observations from a re-analysis of the deposited data

How the results depend on the processing

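With 1 array a group the replicate error is unknown, and signals under the floor give no ratio. No paired analysis was possible because each group has 1 pool. Of 298 recomputed values and counts, 15 moved by more than the spread between probe sets of a gene or, for counts, by over 1.5 times or to or from 0. Many of the 298 could hardly move, such as those from unscaled values and the member ratios under other floors. Both Mbp ratios lost at the 60th percentile floor are not among them. The 15 of 298 is therefore not a rate of stability. Several small medians and genes crossed 0. The share of all measured genes or probe sets at least 2-fold different was computed only for the processing reported above. Counts under other settings stand without that share and cannot be read as particular to a list. With the floor at the 25th percentile, 1 member probe set (Sox10 100283_at) differed at least 2-fold in place of 0, and the counts at least 2-fold different were 1 gene for the Schwann lineage, 1 for melanocytes, 2 for Merkel cells and 1 for macrophages, each 0 before. S100b was then measured in knockout skin alone, with a log2 ratio of at least 0.23. With the floor at the 60th percentile, the Merkel cell median was 0.10 in place of 0.46, 3 member probe sets were measured and 0 endothelial genes differed 2-fold, with an endothelial median of -0.10 in place of 0.17. That endothelial count, 1 before, was also 0 with the pseudocount, quantile normalization and the lowess correction. The dermal fibroblast count, 1 before, was 0 with the pseudocount and with the mean over probe sets. The skeletal muscle count was 1 in place of 0 with quantile normalization and with the lowess correction. The median over all measured genes lay between -0.0037 and 0.05 across settings. As the mean over probe sets, 1 member gene was above 0, Mbp, in place of 0. The medians of the Schwann lineage (-0.06 to 0.21), axonal (-0.08 to 0.08), melanocyte (-0.07 to 0.06) and myelin lists (-0.17 to 0.02) crossed 0 across settings. The neurotrophic list had a median between 0.20 and 0.33 and the members one between -0.17 and -0.08. The causes of these shifts were not tested.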
